A study of Mus musculus with 4 samples.

Results

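The genes described here are the light chain and MD4 receptor genes of germinal center (GC) B cells: the light chain constant genes Igkc, Iglc1, Iglc2 and Iglc3, the variable genes Iglv1, Igkv5-43 and Ighv3-8, and Jchain. These 8 genes of the 32285 in the count matrices were chosen by name, and the variable genes among them because they were seen to lead the plasma clusters of these same cells, so the rise of the members in plasma-like cells is given as a description, without a test. T cells, defined by 3 or more UMIs (unique molecular identifiers, 1 per captured RNA molecule) over Cd3d, Cd3e, Cd3g and Trbc2, served as the reference for free RNA, since T cells make no antibody.

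CD45.1+ wild-type recipient mice received a mixture of splenic MD4 B cells, which carry a transgene for an antibody against hen egg lysozyme (HEL), and were immunised with sheep red blood cells coupled to HEL. In each of 6 recipients the CD45.1+ transferred cells were Dock8wt/wt, and the CD45.2+ transferred cells carried BCL2.Tg, a BCL2 transgene active in B cells, and were Dock8wt/wt in 3 mice or Dock8cpm/cpm, a DOCK8-null point mutation, in the other 3. On day 8, CD95+ HEL-binding spleen cells of all 6 mice were hashtagged, pooled and sorted into a CD45.1+ and a CD45.2+ sample, each with 1 mRNA library. All mice of a sort therefore shared 1 pool of free RNA, and the sort, the BCL2 transgene and the library cannot be told apart. Below, Dock8cpm/cpm and Dock8wt/wt mice are these wild-type recipients, named by the genotype label of their CD45.2 cells.

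An antibody pairs a heavy chain with a kappa or a lambda light chain, and each chain joins a variable region, which binds antigen, to a constant region. The HEL-binding MD4 receptor (HyHEL10) uses the heavy chain gene Ighv3-8 and the kappa gene Igkv5-43, and the transgene is made as IgM and IgD. A B cell that already carries a complete receptor usually does not make further light chains, which is called allelic and isotype exclusion. Among mouse lambda genes, Iglv1 is joined to Iglc1 or Iglc3, and Iglv2 mainly to Iglc2. Jchain encodes the joining chain of secreted pentameric IgM and is switched on as B cells become plasma cells.

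The variable genes are shown because each has a close relative that could share its reads. The sequences are those of the C57BL/6J reference (GRCm38, read on the minus strand), not of the MD4 transgene, and capitals mark the bases that differ from the nearest relative. Igkv5-43 on chromosome 6 (chr6:69823355-69823652) is compared with Igkv5-45, Ighv3-8 on chromosome 12 (chr12:114322378-114322677) with the pseudogene Ighv3-2, and Iglv1 on chromosome 16 (chr16:19085022-19085321) with Iglv2. All 3 stretches lie in the exon that codes for the variable domain, of which at most the first 300 bases are given.
Igkv5-43: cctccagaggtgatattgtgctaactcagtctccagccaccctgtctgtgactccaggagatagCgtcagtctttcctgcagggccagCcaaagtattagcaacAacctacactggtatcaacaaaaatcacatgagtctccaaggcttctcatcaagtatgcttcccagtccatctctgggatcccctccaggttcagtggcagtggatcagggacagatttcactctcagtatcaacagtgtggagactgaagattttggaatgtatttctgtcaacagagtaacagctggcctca
Ighv3-8: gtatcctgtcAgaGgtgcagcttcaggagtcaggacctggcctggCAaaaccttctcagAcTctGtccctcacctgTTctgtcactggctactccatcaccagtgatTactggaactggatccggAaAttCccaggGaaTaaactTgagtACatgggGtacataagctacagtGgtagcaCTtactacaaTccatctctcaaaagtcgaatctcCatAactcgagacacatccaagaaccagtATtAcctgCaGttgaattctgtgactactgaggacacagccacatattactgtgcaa
Iglv1: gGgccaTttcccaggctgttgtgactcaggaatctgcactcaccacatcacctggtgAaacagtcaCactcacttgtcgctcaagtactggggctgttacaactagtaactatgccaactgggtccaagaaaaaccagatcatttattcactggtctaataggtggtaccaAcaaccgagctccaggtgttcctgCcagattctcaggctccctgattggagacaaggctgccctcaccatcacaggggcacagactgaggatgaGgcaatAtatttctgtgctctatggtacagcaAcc
Igkv5-43 and Igkv5-45 were alike at 99.0% of 298 aligned bases, with an unbroken shared run of 193 bases, so a read inside that run cannot separate them. Iglv1 and Iglv2 were alike at 97.0% of 305 bases. Ighv3-8 and Ighv3-2 were alike at 90.1% of 303 bases. Between Iglv1 and the kappa genes no such likeness was found: it was alike to Igkv5-43 at 57.1% of the aligned bases with a longest shared run of 9, and to Igkc at 54.7% with a longest run of 7.

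The lambda constant genes lie within the same locus on chromosome 16, and the last 150 coding bases of Iglc1 (chr16:19061755-19061904), Iglc2 (chr16:19198539-19198688) and Iglc3 (chr16:19065368-19065517) are shown because reads of a 3' assay fall near this end. Capitals mark bases that are not the same in all 3 genes.
Iglc1: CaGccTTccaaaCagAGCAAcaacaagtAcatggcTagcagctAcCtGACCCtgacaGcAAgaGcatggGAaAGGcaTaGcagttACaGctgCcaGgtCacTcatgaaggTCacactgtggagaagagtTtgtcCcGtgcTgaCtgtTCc
Iglc2: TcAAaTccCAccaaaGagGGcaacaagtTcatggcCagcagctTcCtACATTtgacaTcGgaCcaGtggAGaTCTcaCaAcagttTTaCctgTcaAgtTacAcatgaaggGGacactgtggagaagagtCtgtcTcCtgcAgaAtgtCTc
Iglc3: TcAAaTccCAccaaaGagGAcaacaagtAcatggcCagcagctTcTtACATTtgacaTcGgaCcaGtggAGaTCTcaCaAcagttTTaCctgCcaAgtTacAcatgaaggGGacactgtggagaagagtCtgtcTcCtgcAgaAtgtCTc
Iglc2 and Iglc3 were alike at 96.5% of their coding bases, with a shared run of 79 bases, whereas Iglc1 was alike to Iglc2 at 74.8% and to Iglc3 at 75.4%, with shared runs of 19 and 17 bases. The split of UMIs between Iglc2 and Iglc3 is therefore uncertain, and that between Iglc1 and these genes less so. Igkc is a single-exon gene at chr6:70726435-70726966 and Jchain has 4 exons at chr5:88519809-88527891.

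The CD45.2 library held 24241 barcodes, of which 6488 were kept as cells of 1 mouse, and the CD45.1 library held 5232, of which 3204 were kept. The CD45.2 cells came unevenly from the mice: 57, 44 and 101 from the Dock8cpm/cpm mice and 2007, 2607 and 1672 from the Dock8wt/wt mice. CD45.1 cells numbered 339 to 947 per mouse. The median was 6535.5 UMIs per CD45.2 cell and 5273.5 per CD45.1 cell, and 38 barcodes occurred in both libraries. Clustering without immunoglobulin genes gave dark zone-like, light zone-like, early/activated/memory-like, plasma-like and T cell-like cells, named from marker genes.

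The genotype labels of the CD45.2 cells went against the sex of origin that the study's notes give, male for wild-type and female for Dock8cpm/cpm cells. In the cells labelled Dock8wt/wt, 97.5 to 98.0% held Xist and 3.30 to 3.80% a UMI of a Y-linked gene (Ddx3y, Eif2s3y, Uty or Kdm5d). In those labelled Dock8cpm/cpm, 54.7 to 69.8% held Xist, 57.9 to 62.1% a Y-linked UMI and 36.8 to 37.2% both. Dock8 RNA, which a point mutation need not change, checks nothing here. The CD45.2 cells are therefore called wt-labelled and cpm-labelled, and an exchange of the labels would turn the sign of every genotype difference. By these genes the sex of the donor cells differed with the genotype label, so the effects of sex and genotype cannot be told apart. The cpm-labelled cells were also not of 1 sex by these genes. Outside plasma-like cells, 32, 21 and 53 of them by mouse held a Y-linked UMI and 24, 17 and 35 did not. Cells of other mice or doublets may thus be among them, which was not tested. Genotype results were also computed with cpm-labelled cells that held a Y-linked UMI against wt-labelled cells that held Xist and none, except in dark zone-like cells, where too few were left.

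T cells were taken as an estimate of the level that free RNA gives. There were 67 kept T cells in the CD45.2 library, 60 of them in the T cell-like cluster, and 41 in the CD45.1 library, all in that cluster. In the clustered T cells, Igkc stood at 11765 CPM (UMIs scaled to a total of 1000000) in the CD45.2 library and at 2323 CPM in the CD45.1 library, Jchain at 1230 and 185 CPM, Igkv5-43 at 311 and 63.9 CPM. Iglv1 had 2 UMIs in the CD45.2 T cells and 0 in the CD45.1 T cells, where a count of 0 allows up to 21.3 CPM, and Ighv3-8 stood at 37.8 CPM in the CD45.2 T cells and at 0 in the others. The other members were all lower in the CD45.1 T cells. Over all 67 CD45.2 T cells, 7 of which lay in other clusters, the levels were higher, at 31875 CPM of Igkc, 2575 of Jchain and 49.1 of Iglv1. The B cell genes Cd79a, Cd79b and Ms4a1 were all absent from 28 of the 41 CD45.1 T cells but from only 3 of the 67 CD45.2 T cells. Free RNA was not told apart from a B cell caught with a T cell, so the CD45.2 reference may lie above free RNA. At the edge of the definition, CD45.2 cells with 3 T cell UMIs (3 cells) had a median of 15917 CPM of Igkc and those with 2 (7 cells, not counted as T cells) one of 19340 CPM, while the CD45.1 library held no cell at either count.

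**Figure D1:**
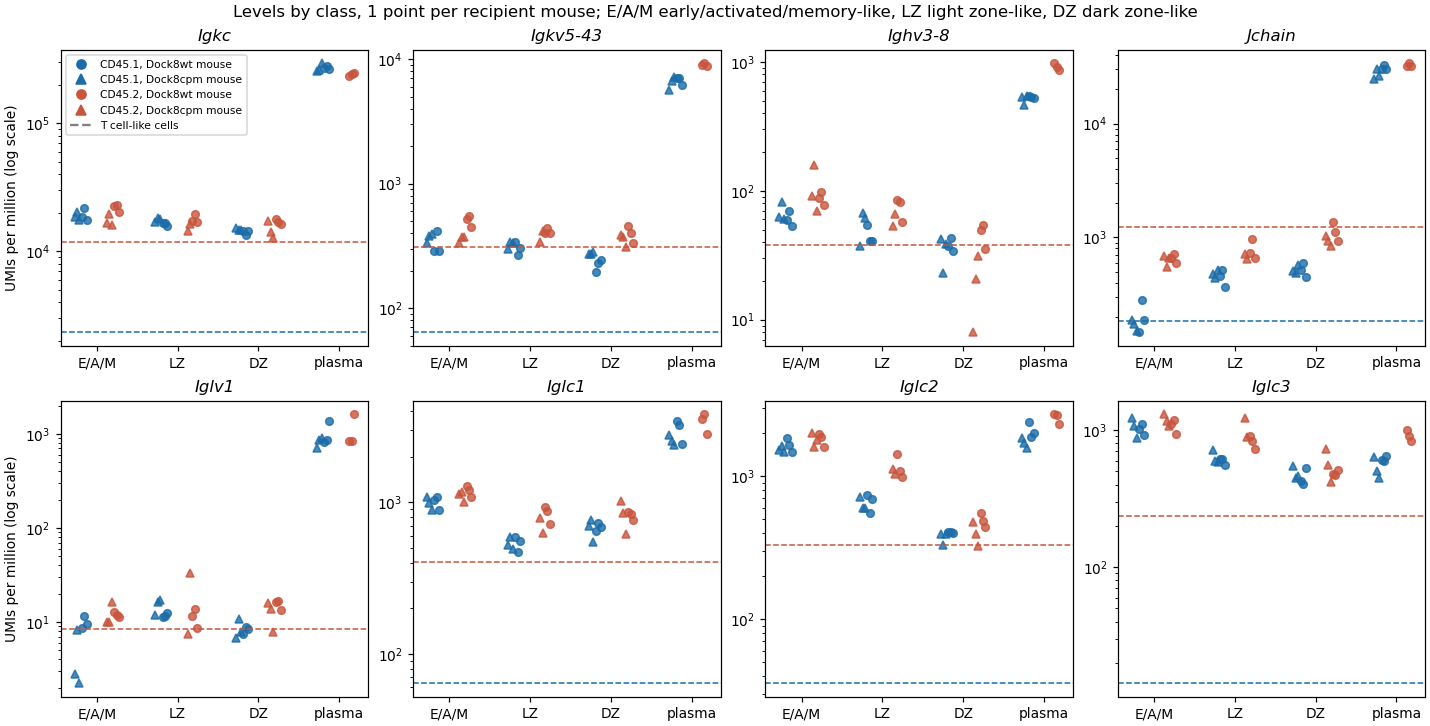
Level of each gene in CPM (log scale) in early/activated/memory-like (E/A/M), light zone-like (LZ), dark zone-like (DZ) and plasma-like cells, with 1 point per recipient mouse and dashed lines for the T cell-like cells of each sort. Iglv1 lies between 2.23 and 32.8 CPM outside plasma-like cells, Jchain of CD45.2 cells lies at or under its T cell line there except in 1 dark zone-like sum, and the mean of Iglc3 is lower in plasma-like than in early/activated/memory-like cells; a level of 0 in the CD45.1 T cells (Iglv1 and Ighv3-8) has no line.

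Igkc, the kappa constant region shared by all kappa chains, was well above its T cell level in every B cell class of the CD45.1 sort. There it stood at 19042 ± 1643 CPM (SD, n = 6 mice) in early/activated/memory-like cells, 17002 ± 928 in light zone-like cells and 14428 ± 608 in dark zone-like cells. The dark zone-like level lay below that of every mouse in the other classes, while the other classes overlapped each other. The order in CD45.2 cells was the same, at 19670 ± 2931, 16854 ± 1825 (n = 5) and 15850 ± 1995 CPM, with neighbouring classes overlapping between mice and all of them nearer to the 11765 CPM of the T cells. In plasma-like cells Igkc reached 272171 ± 13129 CPM in the CD45.1 sort and 241311 ± 4849 CPM in the 3 wt-labelled CD45.2 mice. The 3 cpm-labelled mice had 13 plasma-like CD45.2 cells in all and as few as 1 in a mouse, too few for a level per mouse.

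Both variable genes of the MD4 receptor were higher there too. Igkv5-43 went from 292 ± 24.9 CPM outside plasma-like cells to 6642 ± 599 CPM within them in the CD45.1 sort (n = 6), and from 408 ± 60.0 (n = 6) to 9043 ± 211 CPM (n = 3) in the CD45.2 sort. Ighv3-8 went from 47.2 ± 3.53 to 526 ± 29.6 CPM and from 62.8 (46.8 to 79.1) to 914 ± 58.2 CPM. Outside plasma-like cells the CD45.2 levels of both genes overlapped those of the T cell-like cells by mouse (n = 3). The T cell-like cells had 272 to 434 CPM of Igkv5-43, against 355 to 489 CPM, and 17.0 to 56.6 CPM of Ighv3-8. The part of free RNA in these CD45.2 levels was not tested. Against its constant region Ighv3-8 changed little: it gave 1.03 UMIs per 100 of Ighm, the IgM constant gene, outside plasma-like CD45.1 cells and 1.10 within them, and 1.15 and 1.27 in the CD45.2 sort. Igkv5-43 gave 1.78 and 2.44 UMIs per 100 of Igkc in the CD45.1 sort and 2.32 and 3.75 in the CD45.2 sort, higher in plasma-like cells with no overlap between mice. In a 3' assay few reads reach the variable exon, so such ratios compare classes and not the amounts of the 2 genes.

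Almost all kappa and heavy chain variable RNA came from the MD4 genes. Over all kept cells Igkv5-43 held 99.3% of the UMIs of 160 Igkv genes, 67 of which had any, and Ighv3-8 held 98.3% of the UMIs of 185 Ighv genes, 46 of which had any. By mouse, outside plasma-like cells, the Igkv5-43 share was 98.7 ± 0.18% in the CD45.1 sort and 98.4 ± 0.65% in the CD45.2 sort (n = 6 each), and the Ighv3-8 share 95.6 ± 1.77% and 96.8 ± 3.14%. The part of free RNA in these shares was not tested. The shares were also compared between the mouse groups by class, save in CD45.2 plasma-like cells. With 3 mice against 3, the smallest p of a two-sided exact permutation test is 0.1, so no difference could pass (21 tests with those of the lambda-dominant cells described further on, adjusted p of 0.84 or more). The groups were apart in CD45.2 dark zone-like cells, where the Igkv5-43 share was 100% in all 3 cpm-labelled mice (49, 54 and 80 Igkv UMIs) and 98.8, 99.0 and 97.0% in the wt-labelled mice (exact permutation p = 0.1).

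The lambda variable gene Iglv1, which is no part of the MD4 receptor, was far higher in plasma-like cells than in other B cells. Outside plasma-like cells it stood at 9.92 ± 1.32 CPM in the CD45.1 sort and at 12.9 ± 2.25 CPM in the CD45.2 sort (n = 6 each), values that lie below the 21.3 CPM a count of 0 allows in the CD45.1 T cells and close to the 12.6 CPM that 3 UMIs amount to in the CD45.2 T cells, so expression above free RNA was not detectable there at this depth. In plasma-like cells the CD45.1 mice had 715, 863 and 905 CPM in the Dock8cpm/cpm group and 825, 853 and 1380 CPM in the Dock8wt/wt group, and the wt-labelled CD45.2 mice 830, 841 and 1616 CPM. The mouse labelled Dock8wt/wt replicate 3 was the highest in both sorts. Over the 3 Dock8wt/wt mice the change was 6.68 ± 0.42 on the log2 scale (SD), or 103-fold, in the CD45.1 sort and 6.27 ± 0.68, or 77.2-fold, in the CD45.2 sort. Since the lower level was not told apart from free RNA, these ratios of measured CPM may understate the difference in expression. The same holds for Jchain in the CD45.2 sort, and the members cannot be ranked by such ratios. The range of Iglv1 over mice, 6.33 to 7.15 in the CD45.1 sort, overlapped that of Jchain, 6.06 to 6.51.

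Against this, Jchain changed by 6.26 ± 0.23 and 5.21 ± 0.15, Igkv5-43 by 4.63 ± 0.13 and 4.33 ± 0.16, Igkc by 4.07 ± 0.01 and 3.63 ± 0.13, and Ighv3-8 by 3.54 ± 0.07 and 3.74 ± 0.22 (log2, CD45.1 and CD45.2, n = 3). The lambda constant genes changed least: Iglc1 by 2.03 ± 0.29 and 1.77 ± 0.14, Iglc2 by 1.31 ± 0.14 and 1.14 ± 0.14, and Iglc3 by -0.10 ± 0.05 and 0.19 ± 0.09. Immunoglobulin genes and Jchain took 36.1 to 38.6% of the UMIs of plasma-like cells and 2.07 to 4.96% of those of other B cells, which lowers every share of other RNA in plasma-like cells. Scaled to the UMIs of all other genes, Iglc3 rose too, by 0.54 in CD45.1 and 0.80 in CD45.2 cells.

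The Iglv1 RNA was spread over most plasma-like cells. A UMI of it was found in 91.3% of 700 CD45.1 and 80.2% of 1456 CD45.2 plasma-like cells, and in mice with 10 or more such cells no cell held more than 9.90% of a mouse's Iglv1 UMIs. Iglc1, which like Iglc3 can be joined to it, was found in 96.0% and 99.2% of them. There were 25 CD45.1 and 10 CD45.2 plasma-like cells with Iglv1 but no Iglc1 UMI, whether or not they held Iglc3, and 54 and 48 with more Iglv1 than all lambda constant UMIs together. Iglv1 gave 0.466 ± 0.0816 UMIs per 100 lambda constant UMIs outside plasma-like CD45.1 cells and 17.9 ± 5.44 within them (n = 6), and 0.448 (0.344 to 0.620, n = 6) and 16.6 ± 8.96 (n = 3) in the CD45.2 sort.

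Within plasma-like cells Iglv1 rose with the kappa constant gene and with Jchain, and not with lambda constant RNA. Ordered by their Igkc share, and cut into 4 groups of equal size, the CD45.1 plasma-like cells (175 a group) had, from the lowest to the highest, 554, 1093, 1308 and 1477 CPM of Iglv1, and the CD45.2 cells (364 a group) 373, 820, 1439 and 1734 CPM. Igkv5-43 climbed from 3938 to 9296 CPM and from 3324 to 14262 CPM over the same groups. Iglc1 had 2241, 2758, 3017 and 2832 CPM and 3538, 3102, 3655 and 3448 CPM. Over cells, Spearman's rho of Iglv1 was 0.38 with Igkc and 0.42 with Jchain in the CD45.1 sort (700 cells) and 0.54 and 0.38 in the CD45.2 sort (1456 cells), but -0.08 and -0.10 with Iglc1. It was weaker in both sorts with Igkv5-43 (0.15 in CD45.1 and 0.33 in CD45.2 cells), Ighm (0.21 and 0.18) and Ighv3-8 (0.17 and 0.17). These cells share a library and a depth, and shares of 1 total are not free of each other.

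**Figure D2:**
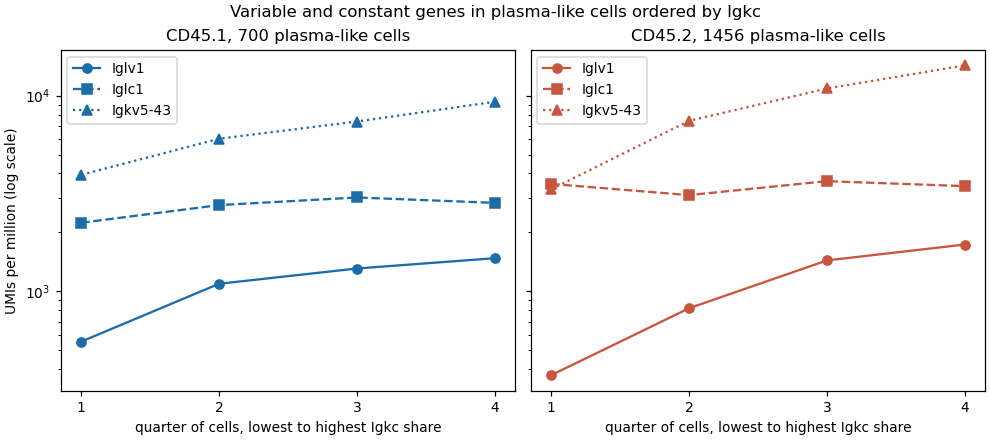
Level in CPM (log scale) of Iglv1, Iglc1 and Igkv5-43 in plasma-like cells of each sort, in 4 equal groups of cells from the lowest to the highest Igkc share. Iglv1 and Igkv5-43 climb from the first to the last group in both sorts, whereas Iglc1 stays between 2241 and 3655 CPM.

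The plasma-like clusters differed among themselves. Igkc was lowest in cluster 11, at 79879 CPM in CD45.1 (21 cells) and 104416 CPM in CD45.2 cells (232 cells), and highest in cluster 9, at 383045 and 302711 CPM. Iglv1 stood at 1254 to 1516 CPM in clusters 5, 6 and 9 of both sorts, and at 587 and 324 CPM in cluster 11 and 159 and 307 CPM in cluster 14. Iglc1 reached 4311 and 3585 CPM in cluster 11. In cluster 12, by contrast, both genes were low: Iglv1 stood at 675 and 957 CPM and Iglc1 at 1466 and 1839 CPM, its lowest level among the clusters of each sort. The cluster with the most cells was cluster 6 in the CD45.1 sort (344 of 700) and cluster 5 in the CD45.2 sort (509 of 1456), so plasma-like totals of the sorts rest on different clusters.

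Besides the members, the 5 variable genes with the most UMIs were Iglv3, Igkv3-1, Igkv5-45, Igkv3-2 and Ighv3-2. Iglv3, with 1901 UMIs, rose in plasma-like cells as Iglv1 did, to 65.8 CPM in CD45.1 and 89.8 CPM in CD45.2 cells from 3.12 to 6.40 CPM in the dark zone-like, light zone-like and early/activated/memory-like classes. T cell-like cells had 1 UMI of it in the CD45.1 and 3 in the CD45.2 library, a higher level than in any of those classes of the same sort, so Iglv3 was not detectable above free RNA in those classes, and its sequence was alike to Iglv1 at only 55.9% of the aligned bases. Igkv3-1 had 338 UMIs and Igkv3-2 had 179, most of them in plasma-like cells. Igkv5-45 (216 UMIs) and Ighv3-2 (99 UMIs) are the near copies of the MD4 genes shown above, and reads cannot tell them apart with certainty.

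Lambda constant RNA made up a larger part of light chain RNA in the early/activated/memory-like cells than elsewhere. Of all light chain constant UMIs, Iglc1, Iglc2 and Iglc3 together held 16.1% there in the CD45.1 sort and 17.4% in the CD45.2 sort (means over 6 mice), against 9.66% and 10.2% in dark zone-like and 9.60% and 14.5% in light zone-like cells. In plasma-like cells the share was 1.91 ± 0.28% (n = 6) and 2.78 ± 0.34% (n = 3). In the T cell-like cells it was 4.39% and 7.90% (n = 3 mice each), with a range of 6.03 to 11.2% in the CD45.2 library that overlapped the 9.45 to 11.4% of its dark zone-like cells, and the part of free RNA in these shares was not tested. Every mouse of both sorts had a higher share in early/activated/memory-like than in dark zone-like cells.

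By the deposited split of UMIs, which is uncertain between Iglc2 and Iglc3, the 3 lambda genes differed unequally. Iglc2 stood at 390 ± 29.6 CPM in dark zone-like and 1598 ± 143 CPM in early/activated/memory-like CD45.1 cells (n = 6), and at 445 ± 79.3 and 1804 ± 179 CPM in CD45.2 cells, with no overlap between mice. Iglc1 went from 682 to 1001 CPM and from 826 to 1152 CPM, and Iglc3 from 470 to 1037 CPM and from 527 to 1131 CPM. The T cell level of Iglc2 was 328 CPM in the CD45.2 library, near its dark zone-like level there, and 35.5 CPM in the CD45.1 library.

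**Figure D3:**
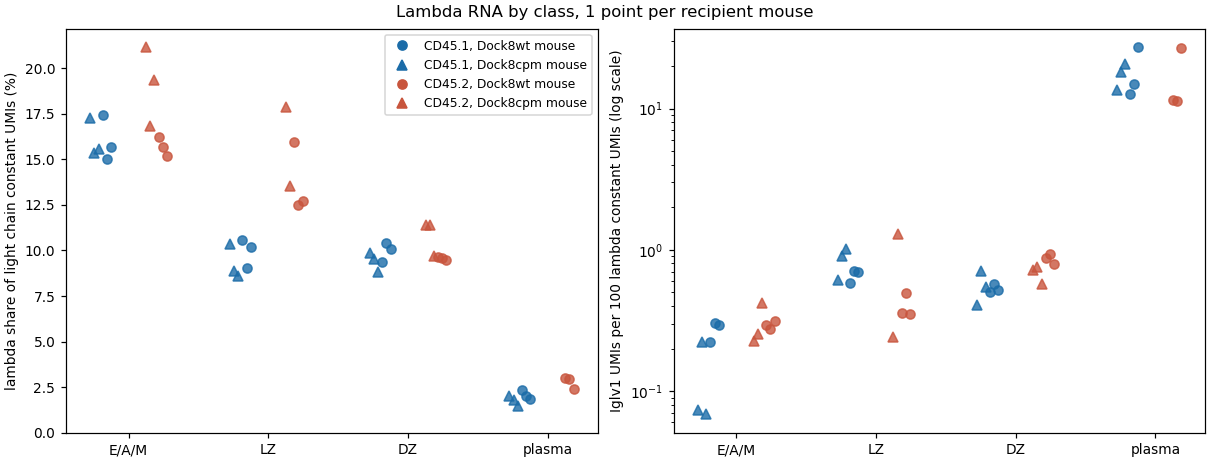
Left, the share of lambda genes (Iglc1, Iglc2 and Iglc3) in light chain constant UMIs by class and mouse; right, Iglv1 UMIs per 100 lambda constant UMIs (log scale). The share is highest in early/activated/memory-like and lowest in plasma-like cells of every mouse with such a value, and the Iglv1 ratio is 11.4 or more in all plasma-like and 1.29 or less in all other sums.

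Few single cells had more lambda than kappa constant RNA. Among cells with 10 or more such UMIs outside the plasma-like class these were 13 of 2452 CD45.1 cells (0.530%, exact 95% interval 0.283 to 0.905%, which covers counting error only) and 6 of 4968 CD45.2 cells (0.121%, 0.0443 to 0.263%). None of these cells held an Iglv1 UMI, and 9 of the 13 CD45.1 cells were early/activated/memory-like. Among plasma-like cells, 0 of 700 CD45.1 cells (at most 0.526%) and 6 of 1443 wt-labelled CD45.2 cells (0.416%, 0.153 to 0.903%) were lambda-dominant, 2 of the 6 with Iglv1. Outside plasma-like cells the CD45.1 share was 0.299% in the Dock8cpm/cpm mice and 0.719% in the Dock8wt/wt mice (means of 3, two-sided exact permutation p = 0.3), and the CD45.2 share 0% and 0.110% (exact permutation p = 0.4).

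Jchain outside plasma-like cells was read against free RNA. In CD45.2 cells it stood at 1031 ± 183 CPM in dark zone-like, 745 CPM in light zone-like and 644 ± 63.0 CPM in early/activated/memory-like cells, against 1230 CPM in the T cells of that library. As shares of UMIs these means are below the T cell level. The depths were unlike, with a median of 10520 UMIs per dark zone-like and 3349.5 per T cell-like cell. By count, the median cell held 7 Jchain UMIs in the dark zone-like class. It held 4 in the light zone-like, early/activated/memory-like and T cell-like classes. Share and count thus differ for dark zone-like cells, and Jchain of these classes was not told apart from free RNA. In CD45.1 cells, whose T cells stood at 185 CPM, it reached 522 ± 53.0 CPM in dark zone-like and 462 CPM in light zone-like cells, above the T cells, and 188 ± 50.3 CPM in early/activated/memory-like cells, which is the T cell level.

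Whether DOCK8 deficiency went with other receptor RNA levels was asked in CD45.2 cells outside the plasma-like class. Igkc stood at 15978, 16209 and 14842 CPM in the cpm-labelled mice and at 20411, 20178 and 18015 CPM in the wt-labelled mice. The groups did not overlap, and the log2 fold change was -0.44 ± 0.07 (SE; edgeR, adjusted p = 0.00276). Igkc was the 1 member called among 8 tested, where 0.205% of all 10248 genes were called. Igkv5-43 stood at 355, 378 and 359 CPM against 489, 479 and 389 CPM, also without overlap, with a log2 fold change of -0.43 ± 0.11 that did not pass (edgeR, adjusted p = 0.105). How many of all genes were without overlap was not counted here. The Igkv5-43 levels of both groups overlapped the 272 to 434 CPM of the CD45.2 T cell-like cells by mouse. The part of free RNA in the Igkc and Igkv5-43 differences was not tested. Jchain, not told apart from free RNA, differed by -0.33 ± 0.09 (edgeR, adjusted p = 0.18), Ighv3-8 by -0.44, Iglc1 by -0.28, Iglc2 by -0.25, Iglv1 by -0.16 and Iglc3 by 0.04, none of them past the threshold.

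That Igkc call rested on the assignment of cells and on single mice. With hashtags assigned by a 3-fold excess it was -0.30 (edgeR, adjusted p = 0.125), and the 1 member called was Jchain, at -0.47 (edgeR, adjusted p = 0.0373). With the sex-linked genes matching the group it was -0.43 (edgeR, adjusted p = 0.00352), and with both -0.22 (edgeR, adjusted p = 0.183), where Jchain was again the 1 call. Without cpm-labelled replicate 2 or 3 the adjusted p of Igkc was 0.0879 and 0.149 (edgeR). The classes were also unequally filled: the cpm-labelled mice gave 77 early/activated/memory-like, 50 light zone-like and 50 dark zone-like cells, and the wt-labelled mice 2544, 783 and 1263, and the part of this in the difference was not tested except within the classes below.

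**Figure D4:**
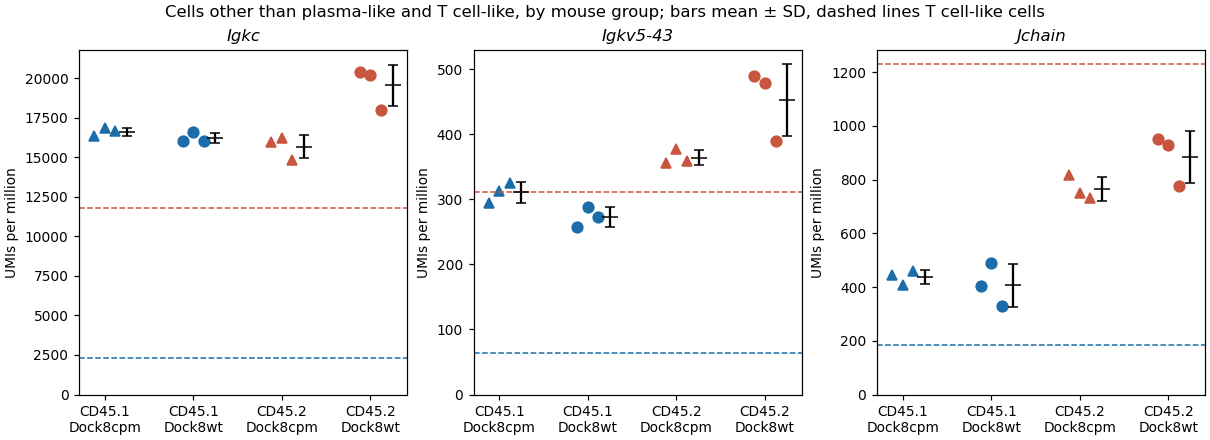
CPM of Igkc, Igkv5-43 and Jchain in B cells outside the plasma-like class, with 1 point per mouse, black bars for mean ± SD of 3 mice, and dashed lines for the T cells of the CD45.1 (blue) and CD45.2 (red) library. Igkc of cpm-labelled CD45.2 cells (14842 to 16209 CPM) lies under that of wt-labelled cells (18015 to 20411 CPM), and all CD45.2 Jchain values lie under their T cell line. The CD45.1 groups overlap in Igkc but not in Igkv5-43.

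The CD45.1 cells of the same recipients, Dock8wt/wt in both groups, showed no such difference of Igkc. Igkc stood at 16325, 16841 and 16629 CPM in the Dock8cpm/cpm mice and 16041, 16565 and 16034 CPM in the Dock8wt/wt mice, a log2 fold change of -0.002 ± 0.07 (edgeR, adjusted p = 0.995). No member and 0% of 8662 genes were called by edgeR, with 594 at an unadjusted p under 0.05, and DESeq2 also called no member. Igkv5-43 was still without overlap, and higher in the Dock8cpm/cpm group, at 294 to 325 CPM against 258 to 289 CPM. Iglc2 was lower without overlap, at 696 to 715 CPM against 757 to 891 CPM. How many of all genes were so was not counted. The difference between the sorts was then tested in 1 model with the recipient as a block. Igkc differed by -0.43 ± 0.06 (edgeR, adjusted p = 0.000331), 1 of 8 members where 0.0318% of 9422 genes were called. Igkv5-43 differed by -0.57 ± 0.13 (edgeR, adjusted p = 0.141). That value takes in its higher CD45.1 level in the Dock8cpm/cpm group as well as its lower CD45.2 level. The Igkc value lay between -0.49 and -0.25 under all alternatives run but lost the call with DESeq2 (adjusted p = 0.356), without the block (edgeR, adjusted p = 0.325) and with the 3-fold hashtag rule (edgeR, adjusted p = 0.194).

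Within early/activated/memory-like CD45.2 cells both kappa genes were lower in the cpm-labelled mice. Igkc stood at 16556, 19474 and 16101 CPM against 22639, 23042 and 20208 CPM, a log2 fold change of -0.55 ± 0.12 (edgeR, adjusted p = 0.0122). Igkv5-43 stood at 331, 376 and 371 CPM against 522, 553 and 446 CPM, a log2 fold change of -0.68 ± 0.14 (edgeR, adjusted p = 0.0103). Neither gene overlapped between the groups, nor did the lambda share of light chain constant UMIs, whose denominator holds Igkc, at 21.2, 16.8 and 19.4% against 16.2, 15.7 and 15.2%, a difference that was not tested. How many of all genes were without overlap was not counted. The T cell-like cells of the wt-labelled mice had 272 to 434 CPM of Igkv5-43, a range that holds all 3 cpm-labelled values, and 11856 to 12985 CPM of Igkc. The part of free RNA in both differences was not tested. Of all 8660 genes, 0.543% were called. With the sex-linked genes matching the group the values were -0.73 and -0.996, and with the 3-fold hashtag rule -0.30 and -0.25, which did not pass (edgeR, adjusted p = 0.236 and 0.279). In dark zone-like cells, where 0.0335% of 8961 genes were called, no member passed. Igkc there was 17242, 14051 and 12759 CPM against 17820, 16869 and 16358 CPM, which overlapped. Light zone-like and plasma-like CD45.2 cells of the cpm-labelled mice were too few for this test.

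Plasma-like CD45.1 cells were compared between the mouse groups as well. Of 4820 genes 0% were called by edgeR, with 286 at an unadjusted p under 0.05, and no member was called by edgeR or DESeq2 (which called 6 genes in all). Iglv1 differed by -0.34 ± 0.17 (edgeR, adjusted p = 0.83) and Iglc2 by -0.34 ± 0.10 (edgeR, adjusted p = 0.757).

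In the Dock8wt/wt mice, BCL2.Tg CD45.2 cells were compared with the CD45.1 cells of the same recipients. Outside the plasma-like class 6 of 8 members were higher in CD45.2 cells, where 3.81% of 10715 genes were called in either direction. Jchain was higher by 1.13 ± 0.08 on the log2 scale (edgeR, adjusted p = 3.49e-06), Igkv5-43 by 0.71 ± 0.09, Ighv3-8 by 0.54 ± 0.11, Iglc2 by 0.46 ± 0.10, Iglc1 by 0.42 ± 0.07 and Igkc by 0.26 ± 0.05. Iglv1 (0.44 ± 0.19) and Iglc3 (0.27 ± 0.08) did not pass. The members other than Iglv1, whose T cell counts give no direction, were also higher in the T cells of the CD45.2 library than in those of the CD45.1 library. Jchain of the CD45.2 cells was not told apart from free RNA, so its difference is not read as one of expression. The part of free RNA in the other differences was not tested. Without Dock8wt/wt replicate 1 or 2, 2 members were called. With the 3-fold hashtag rule Iglc1 and Iglc2 were not called (edgeR, adjusted p = 0.0818 and 0.187) and Iglv1 was (0.82, edgeR, adjusted p = 0.0341), and without the cells of the highest Scrublet (doublet) scores Ighv3-8 was not (edgeR, adjusted p = 0.0561).

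In plasma-like cells, where most members were far above their T cell levels, the sorts differed in both directions. There 22.9% of 9116 genes were called, and 4 of 8 members. Ighv3-8 stood at 976, 907 and 860 CPM in CD45.2 and at 542, 538 and 528 CPM in CD45.1 cells of the same mice, 0.63 ± 0.09 higher on the log2 scale (edgeR, adjusted p = 1.31e-05). Iglc3 was higher by 0.42 ± 0.09 and Igkv5-43 by 0.28 ± 0.08 (edgeR, adjusted p = 0.00144 and 0.0119). Iglc3 was nearer to free RNA, with means of 912 CPM against 235 CPM in the clustered T cells of the CD45.2 library. In the CD45.1 library these were 616 and 14.2 CPM, and the part of free RNA in the Iglc3 difference was not tested. Igkc was lower, at 236367, 241507 and 246059 CPM against 271857, 279481 and 267658 CPM, a log2 fold change of -0.31 ± 0.08 (edgeR, adjusted p = 0.00589). Jchain (-0.05 ± 0.08), Iglv1 (-0.06 ± 0.09), Iglc1 (0.04 ± 0.08) and Iglc2 (0.17 ± 0.08) did not pass. The sorts rest on different plasma-like clusters, and the part of this in the member differences was not tested. Without Dock8wt/wt replicate 3 only 2 members, both higher, were called. Without the cells of the highest Scrublet scores Igkc was at -0.23 (edgeR, adjusted p = 0.0866), and Iglc2 passed, so that all 4 called members were higher. With the 3-fold hashtag rule Igkv5-43 was at 0.15 (edgeR, adjusted p = 0.141), while Iglv1 and Jchain passed as lower, at -0.29 and -0.20 (edgeR, adjusted p = 0.004 and 0.0396).

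**Figure D5:**
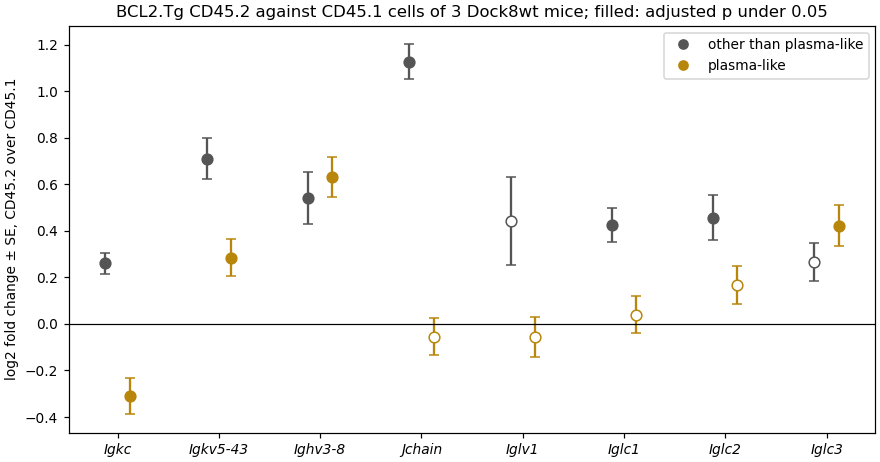
Log2 fold change ± SE of each member between BCL2.Tg CD45.2 and CD45.1 cells of the 3 Dock8wt/wt mice, outside the plasma-like class (grey) and in plasma-like cells (gold), with filled points for an adjusted p under 0.05. Igkc is higher by 0.26 outside and at -0.31 in plasma-like cells, and Ighv3-8 is higher in both.

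The genes of antibody assembly and secretion, a list of 25 that includes Xbp1 and Prdm1, the plasma cell transcription factors, and the chaperones and signal peptidase subunits of the endoplasmic reticulum, had no call in any genotype comparison. In plasma-like cells, where 1001 of all 9116 genes were lower and 1087 higher (22.9% called in all), 16 of the 25 were lower in CD45.2 than in CD45.1 cells and none was higher, with a median log2 fold change of -0.45 over the list against 0.03 over all genes. The chaperone Hsp90b1 had a log2 fold change of -0.74, Spcs1 of the signal peptidase one of -0.77, and Sdc1 (CD138) one of -0.49. The plasma-like totals of the sorts rest on different clusters, with 344 CD45.1 and 164 CD45.2 cells in cluster 6. The part of this in the list differences was not tested. Outside plasma-like cells, where 3.81% of genes were called, 6 of the 25 were higher in CD45.2 cells and none lower, with a median of 0.25 against 0.01 over all genes. Prdm1 was among them at 1.98 and the disulfide isomerase Pdia4 at 0.86. The T cell-like cells of the CD45.2 library also had more of both, with 6 UMIs of Prdm1 in 64 cells against 2 in 50 cells, and 192 against 66.2 CPM of Pdia4. Prdm1 of CD45.2 cells stood at 3.60 to 6.80 CPM in the named B cell classes outside plasma-like cells, below the level of those T cells. T cells served as a free-RNA reference because they make no antibody, and whether they make Prdm1 or Pdia4 themselves was not tested. The part of free RNA in these 2 differences is thus not known, and the Prdm1 difference is not read as one of expression.

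Of 17 genes of the light chain loci and of receptor editing, 1 to 4 had enough counts for a test, and the 1 call, 1 of 4 tested in a comparison that called 22.9% of all genes, was Vpreb3, a gene of the surrogate light chain family, which was higher by 0.39 in CD45.2 plasma-like cells (edgeR, adjusted p = 0.0369). Rag1, a subunit of the recombinase that joins variable genes, had 1 UMI in B cells of a named class. Over 53 sums by class, sort and mouse, and 7409 genes outside the immunoglobulin loci, the level of Igkc ran most like that of Cacna1e (Spearman's rho 0.916) and Evi5 (0.851). Iglv1 ran most like Tnfrsf17 (0.806), the plasma cell survival receptor BCMA, and Selenok (0.779). Ighv3-8 ran most like Evi5 (0.879) and Fkbp11 (0.854), and Jchain like Edem1 (0.841) and St6gal1 (0.828). Sums of 1 mouse or library share cells and depth, so these are descriptions.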

How the data were processed

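The authors sorted CD45.1+ and CD45.2+ cells of 6 hashtagged mice and made 1 mRNA and 1 hashtag library per sort on the 10x platform. The deposited matrices hold counts, whole UMIs per gene and barcode and hashtag counts per barcode, made by the authors with Cell Ranger 5.0.1 on mm10; Seurat 4.0 is named per the labels. Members and gene lists were chosen with earlier results of these data known.

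Barcodes with under 10% mitochondrial counts and 100 to 5500 genes were kept where HTODemux (Seurat 5.3.0, quantile 0.99) gave a single hashtag, which also removed doublets between mice; 7951 CD45.2 and 1548 CD45.1 barcodes were hashtag doublets, and 9624 and 375 had no hashtag counts. The study states more CD45.2 cells after its filters. Clusters (2978 variable genes, 30 components, resolution 0.9) were built without 393 immunoglobulin genes and Jchain and named "-like" from marker genes; a difference from the study may come from these rebuilt names. The unnamed cluster entered the class outside plasma-like cells.

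UMIs were summed per mouse, sort and class (10 cells or more) and tested with edgeR 4.0.16 (quasi-likelihood, TMM, Benjamini-Hochberg over all genes, threshold 0.05) in R 4.3.3. Comparisons between sorts were paired by recipient mouse, since both sorts came from the same animal. The p-values measure the spread between 3 mice per group. On simulated counts for the genotype comparison in CD45.2 cells (10248 genes) 82% of 2-fold and 99% of 4-fold changes were recovered with 5.2% false calls, and for the sort comparison outside plasma-like cells (10715 genes) 86% and 98% with 4.7%. Changes were planted only in genes above a minimum expected count in the smallest sum. These rates therefore do not cover genes of the lowest counts or changes under 2-fold. Depth was 342465 to 18036775 UMIs per mouse and sort. Named genes were the members, the 5 next variable genes, the genes of most similar level, and members of the 2 lists. Alternatives were DESeq2 1.42.0, other filters, scaling, hashtag rules, clusterings, Scrublet (scanpy 1.11.5) scores, each mouse left out, and, chosen after seeing the data, cells whose sex-linked genes match the group. Sequences came from GRCm38 with GENCODE annotation.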

Additional observations from a re-analysis of the deposited data

Results flagged for a closer look

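Igkc, the kappa constant gene, differed between the mouse groups in 1 sort and not in the other. Outside the plasma-like class the log2 fold change of Dock8cpm/cpm over Dock8wt/wt mice was -0.44 in CD45.2 cells and -0.002 in CD45.1 cells, and the test of the difference itself, with the recipient as a block, gave -0.429 ± 0.059 (SE; edgeR, adjusted p = 0.000331, 3 mice per group). In CD45.2 cells Igkc was lower in 3 of 3 cpm-labelled mice than in every wt-labelled mouse, and how many of all genes were so was not counted. The adjusted p of the difference between the sorts ranged from 5.62e-13 to 0.435 over its alternatives. The part of free RNA in the Igkc difference was not tested.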

How the results depend on the processing

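With the 3-fold hashtag rule the CD45.2 dark zone-like comparison called 1 member (Jchain, 0 as reported), the early/activated/memory-like one 0 (2 as reported) and the difference between the sorts 0 (1 as reported); with sex-linked genes matching as well, the early/activated/memory-like comparison and the difference between the sorts also gave 0. The difference between the sorts called 0 members with DESeq2 and 0 with no replicate block (the pairing by recipient), and 3 with no count filter. The CD45.2 genotype comparison (1 as reported) called 2 with DESeq2, 3 with no count filter and 3 with sex-linked genes matching the group. Leaving out each mouse gave 0 to 1 members in dark zone-like, 0 to 3 in early/activated/memory-like, 1 to 3 for the difference between the sorts, 0 to 4 for the CD45.2 genotype comparison, 2 to 7 for the sort comparison outside plasma-like cells (6 as reported) and 2 to 4 for that in plasma-like cells (4 as reported). Without the block the sort comparison called 5 members outside plasma-like and 4 in plasma-like cells. No log2 fold change of a called member changed sign in these refits.

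The MD4 share, in percentage points of Dock8cpm/cpm minus Dock8wt/wt mice, changed sign within the spread between mice: for Igkv5-43 in CD45.1 cells outside plasma-like cells from 0.0345 to -0.00102 without the highest Scrublet scores, and over left-out mice from -0.0623 to 0.162 there, -0.0816 to 0.288 in CD45.1 plasma-like and -0.265 to 0.651 in CD45.2 cells; for Ighv3-8 from -0.361 to 0.676 in CD45.1 plasma-like and -3.22 to 1.13 in CD45.2 cells. Iglc3 in CD45.1 plasma-like cells was 0.535 (log2) when scaled to other genes. The count of genes called in CD45.2 cells (21) was 78 with DESeq2, 147 without a filter, 13 with the 3-fold rule, 58 with sex-linked genes matching, 77 with both and 7 to 61 over left-out mice; that of the sort comparison (408) was 192, 802, 178 with the 3-fold rule, 232 with both and 77 to 1504; that in plasma-like cells (2088) 867 with DESeq2; that in early/activated/memory-like cells (47) 77, 135, 78 with sex-linked genes matching and 7 to 98. From 3 genes, the difference between the sorts went to 1 to 43 and the dark zone-like comparison to 1 to 26, and from 0 the CD45.1 comparisons went to as many as 53 and 27 without a filter. The causes were not tested. Without a filter the median of all genes moved by -0.26 to 0.22, and to -0.50, in the fits concerned. The CD45.2 plasma-like and light zone-like genotype comparisons could be fitted only with the 3-fold rule, with 0 members called.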

Other observations

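The recipient labelled Dock8wt/wt replicate 3 had the highest Iglv1 in plasma-like cells of both sorts, 1380 CPM in CD45.1 and 1616 CPM in CD45.2 cells, against 715 to 905 and 830 to 841 CPM in the other mice. Its median cell had 1054 and 1010 CPM of Iglv1, against 505 to 737 CPM in the other CD45.1 mice and 398 to 472 CPM in the other CD45.2 mice, and its highest single cell held 2.67 and 2.63% of the Iglv1 UMIs. Its Iglc1 was low in the same cells, at 2284 and 2548 CPM for the median cell, against 2699 to 3928 and 3406 to 3886 CPM.

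Igkc and Ighm, which encode the chains of 1 antibody, did not keep 1 ratio in plasma-like cells. There were 5.70 ± 0.50 Igkc UMIs per Ighm UMI in the CD45.1 sort (n = 6) and 3.35 ± 0.25 in the CD45.2 sort (n = 3), while outside plasma-like cells the values were 3.59 ± 0.21 and 3.21 ± 0.27 (n = 6 each). The sorts lie in different clusters and libraries, and the part of either in this difference was not tested.

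Over CD45.1 and CD45.2 plasma-like cells, Igkc and Igkv5-43 had a Spearman's rho of 0.57 and 0.72, and Igkc and Iglc3 one of -0.14 and -0.29, as descriptions over cells that share a library.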
